A study of Mus musculus with 12 samples.

Results

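The genes described here encode the parts of the mitochondrial respiratory chain and ATP synthase that are made from nuclear DNA. They were taken by name from the deposited table of 21872 gene symbols: those beginning with Nduf and a subunit letter and number (complex I), the 4 Sdh subunits (complex II), Uqcr (complex III), Cox4 to Cox8 (complex IV) and Atp5 (complex V). Of 86 symbols that matched, 79 had a mean of at least 1 CPM (counts scaled to a common library total) over the 12 libraries and no multiples-of-11 pattern. They comprised 36 genes of complex I, 4 of complex II, 8 of complex III, 14 of complex IV and 17 of complex V. Ndufb1-ps, annotated as noncoding, was counted with complex I by its name only. Ndufa4 and Ndufa4l2, which carry complex I names, were counted with complex IV, where the Ndufa4 protein is known to sit. All 79 passed the filter on low counts in every comparison.

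Complexes I and II feed electrons from NADH and succinate into the chain, complex III passes them to cytochrome c, and complex IV hands them to oxygen. Complexes I, III and IV pump protons, and complex V lets the protons flow back to make ATP. Except for complex II, each complex also holds proteins made from mitochondrial DNA, and neurons depend on this pathway for most of the ATP that their ion pumps and synapses use.

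All brains were from the C57BL/6J strain, taken on postnatal day 24. According to the series, 6-hydroxydopamine, a toxin of dopamine neurons, was used to make a model of attention-deficit/hyperactivity disorder, and the labels call those mice ADHD. The groups were lesioned prefrontal cortex, control prefrontal cortex, lesioned striatum and control striatum, with 3 libraries each. The toxin's amount, route and timing, like any vehicle in controls, being not given in the sources used here, can only be left out. Whether libraries of 1 group are from separate animals is not stated either, so the p-values reflect only the spread between libraries, which may be technical.

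Total counts lay between 15078631 and 20925452 per library. Markers of cortical excitatory neurons (8 genes) summed to 2605 to 2745 normalised CPM in lesioned and 2652 to 2856 in control prefrontal cortex, against 108 to 304 in lesioned and 77.6 to 923 in control striatum, where control replicate 2 was the highest. Markers of striatal projection neurons (10 genes) summed to 3904 to 9665 in lesioned and 1824 to 2891 in control striatum, so the striatal groups did not overlap in them. In that same control striatal replicate 2, choroid plexus and ependyma markers summed to 2064 normalised CPM, against 46.1 to 92.2 in the other 5 striatal libraries. The 13 mitochondrially encoded genes are listed at 0 in every library, so the mitochondrial subunits were not analysed here. In bulk tissue, fewer cells of a type and less RNA per cell cannot be told apart.

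The stretch before the transcription start is shown for 4 members: Cox6b1 and Uqcr11, which fell in lesioned prefrontal cortex and were also lower in striatum than in prefrontal cortex, and Cox6a1 and Cox8a, which were among the genes with the largest difference between the regions. The sequences are the 250 bases before the start given by RefSeq on GRCm38.p6, all on the minus strand: chr7:30626115-30626364 for Cox6b1, chr10:80406822-80407071 for Uqcr11, chr5:115348959-115349208 for Cox6a1 and chr19:7217617-7217866 for Cox8a. Capitals mark letters of motifs of factors known to drive respiratory chain genes.
Cox6b1: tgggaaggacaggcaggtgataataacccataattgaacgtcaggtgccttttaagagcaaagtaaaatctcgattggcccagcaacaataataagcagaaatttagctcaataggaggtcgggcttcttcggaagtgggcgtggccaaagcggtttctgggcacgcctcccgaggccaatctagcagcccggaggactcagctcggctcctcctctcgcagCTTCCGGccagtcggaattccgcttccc
Uqcr11: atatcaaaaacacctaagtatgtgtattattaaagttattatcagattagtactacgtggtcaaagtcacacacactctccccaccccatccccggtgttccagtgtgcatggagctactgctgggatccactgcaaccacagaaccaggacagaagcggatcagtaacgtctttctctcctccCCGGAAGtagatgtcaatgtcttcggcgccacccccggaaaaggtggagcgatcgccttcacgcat
Cox6a1: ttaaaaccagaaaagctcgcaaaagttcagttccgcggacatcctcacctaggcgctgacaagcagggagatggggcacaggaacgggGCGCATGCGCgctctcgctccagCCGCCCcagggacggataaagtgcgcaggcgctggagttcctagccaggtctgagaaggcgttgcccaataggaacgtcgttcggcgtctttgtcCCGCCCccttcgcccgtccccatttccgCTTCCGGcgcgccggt
Cox8a: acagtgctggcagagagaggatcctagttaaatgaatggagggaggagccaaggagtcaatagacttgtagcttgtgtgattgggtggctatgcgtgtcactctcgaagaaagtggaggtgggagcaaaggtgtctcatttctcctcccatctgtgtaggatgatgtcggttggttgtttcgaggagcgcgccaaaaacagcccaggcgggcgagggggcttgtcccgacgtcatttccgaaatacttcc

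Of the 79 genes, 65 had such a window in the RefSeq table, 70 windows in all. Both strands were searched for CCGGAAG (the ETS-type motif of GABPA), GCGCATGC or GCATGCGC (NRF1), GGGCGG (Sp1), AAGATGGC (YY1) and TCAAGGTCA (the estrogen-related receptors). The GABPA motif lay in 17.1% of the members' windows and in 6.91% of all 32851 windows, and the NRF1 motif in 11.4% and 2.26%. Sp1 letters were in 32.9% and 32.7%, YY1 letters in 1.43% and 1.57%, and receptor letters in 1.43% and 0.387%. For YY1 and the receptors, 1.43% is 1 of the 70 member windows. The 32851 windows belong to 27025 genes, more than were tested for expression here. In the printed windows the GABPA motif begins 28 bases before the start in Cox6b1, 66 in Uqcr11 and 16 in Cox6a1. The Cox6a1 window also holds 1 stretch that matches both searched NRF1 forms, beginning 162 and 160 bases before the start. That stretch reads the same on both strands, so the 2 overlapping matches are not separate sites. The Cox6a1 window holds 2 Sp1 motifs as well, while the Cox8a window holds none of the searched letters. These positions count from the RefSeq start. By the GENCODE gene ends the last 37 bases of the Cox6b1 window, 9 of the Uqcr11 window and 23 of the Cox6a1 window lie inside the annotated gene, which takes in the GABPA motifs of Cox6b1 and Cox6a1. A match is a description of the letters and not a measured binding site.

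Per kilobase of transcript (the median length of the gene's protein-coding transcripts in GENCODE), Atp5b, the catalytic beta subunit of ATP synthase, had the highest level of all members at 543 normalised CPM per kb over the 12 libraries. Next came Cox8a at 489 and Cox4i1 at 461, both subunits of complex IV. The lowest were Ndufb2 at 12.2, Cox6a2 at 4.64 and Ndufa4l2 at 1.70 normalised CPM per kb. Ndufb2 and Atp5g1 carry annotated transcripts of 2413 and 2675.5 bases in that median, which lowers their values per kb. Paralogs of 1 subunit therefore differed widely: Cox6a1, the form of most tissues, had 332 normalised CPM per kb, against 4.64 for Cox6a2, the heart and muscle form that mouse parvalbumin interneurons are also known to use. Among the genes of the rotor ring subunit c, which encode the same mature protein, Atp5g3 had 242, Atp5g2 50.6 and Atp5g1 39.6 normalised CPM per kb. The place of Atp5g1 rests on its length: not divided by length, its level was 106 normalised CPM, against 29.6 for Atp5g2. Of the 79 genes, 39 overlap another annotated gene and several have processed pseudogenes in the mouse genome. Their levels are uncertain to that extent, the strand setting and the handling of multiply matching reads being not given in the sources used here.

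**Figure D1:**
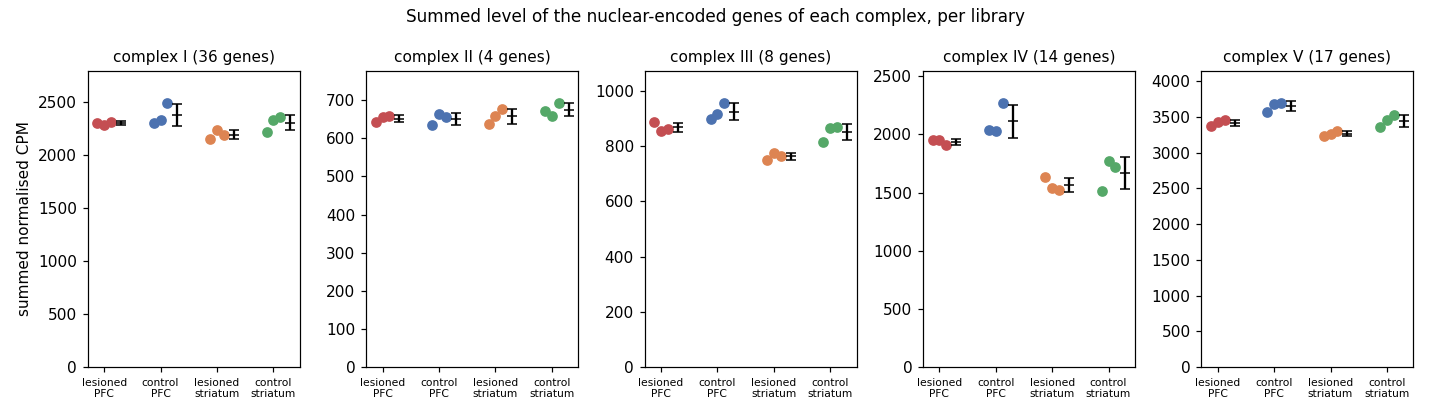
Summed level (normalised CPM, axis from 0) of the nuclear-encoded genes of each complex, 1 point per library, with the mean and SD of 3 libraries as the bar beside each group. Complex IV shows the largest drop in striatum, at 1522 to 1630 in lesioned and 1516 to 1773 in control striatum, against 1905 to 1952 in lesioned and 2025 to 2274 in control prefrontal cortex.

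In prefrontal cortex, the lesioned libraries held slightly less mRNA of the respiratory chain. Summed over the 79 genes, the level was 9158, 9173 and 9197 normalised CPM in the lesioned libraries, against 9441, 9620 and 10080 in the controls. The groups did not overlap, and the third control library was the highest of all. Complex IV summed to 1936 ± 26.9 normalised CPM in lesioned and 2113 ± 140 in control cortex, and complex V to 3423 ± 41.5 and 3652 ± 72.7 (SD, n = 3 each). The 4 genes of complex II summed to 651 ± 8.47 in lesioned and 651 ± 15.2 in control cortex, which differed by less than the spread between replicates.

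Gene by gene, 8 of 79 members fell in lesioned prefrontal cortex at an adjusted p under 0.05 (edgeR's quasi-likelihood test, Benjamini-Hochberg adjustment over 14018 genes), and 0 rose, also at an unadjusted p under 0.05 and by DESeq2 and limma-voom. DESeq2 called 3.65% of all genes higher and limma-voom 3.6%. The 8 genes are 10.1% of the members, against 2.28% of all genes tested lower and 3.45% higher by edgeR. The median log2 fold change of the members was -0.098, against -0.0051 over all genes, and 68 of 79 members lay below 0. For 24 members, every lesioned library was below every control library, and for 0 members above; over all genes such separation was found for 11.1% on the lower and 14.2% on the higher side.

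The 8 genes that fell encode small subunits. In complex I, 2 of 36 fell. Ndufc1, a small accessory subunit of the membrane arm, had 23.9, 24.3 and 22.0 normalised CPM in lesioned cortex, against 29.0, 28.5 and 30.9 in control cortex. The groups were apart, and the log2 fold change of -0.34 (SE 0.075, edgeR adjusted p = 0.0175) was the largest fall among the members. Ndufb9, another membrane-arm accessory subunit, had 74.4, 70.7 and 73.0 normalised CPM in lesioned and 81.0, 80.6 and 87.7 in control cortex (log2 fold change -0.20, SE 0.055, adjusted p = 0.0439 by edgeR). Of the 7 core subunits that carry the flavin, the iron-sulphur centres and the quinone site, 0 passed, and their median log2 fold change was -0.025. Ndufv1, the flavoprotein that takes electrons from NADH, averaged 143 ± 2.93 normalised CPM in lesioned and 141 ± 1.94 in control cortex, and Ndufs1, the large iron-sulphur subunit, 167 ± 4.61 and 157 ± 6.87 (SD, n = 3 each). Neither passed the test.

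Complex II, the only complex made wholly from nuclear genes, had 0 of 4 called and a median log2 fold change of -0.011. Sdha, its flavoprotein, had 386, 406 and 400 normalised CPM in lesioned and 378, 408 and 388 in control cortex, so the groups overlapped. In complex III, 1 of 8 fell. Uqcr11, a small supernumerary subunit, had 75.5, 69.6 and 71.8 normalised CPM in lesioned cortex, against 81.3, 81.8 and 94.7 in controls (log2 fold change -0.26, SE 0.065, edgeR adjusted p = 0.0341). Uqcrfs1, the Rieske iron-sulphur protein that catalyses electron transfer, averaged 104 ± 1.36 in lesioned and 106 ± 3.47 normalised CPM in control cortex (SD, n = 3 each) and did not pass.

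In complex IV, 2 of 14 fell. Cox6b1, a subunit at the interface of the complex IV dimer, had 126, 134 and 125 normalised CPM in lesioned cortex, against 142, 151 and 164 in controls, a log2 fold change of -0.26 (SE 0.058, edgeR adjusted p = 0.0181). Cox6c, another small subunit, had 150, 139 and 144 in lesioned and 156, 163 and 174 normalised CPM in control cortex (log2 fold change -0.20, SE 0.053, adjusted p = 0.0481 by edgeR). Both pairs of groups were apart. Cox4i1, the largest of the nuclear subunits, had 370, 380 and 355 in lesioned and 390, 382 and 427 normalised CPM in control cortex. Its groups did not overlap, but its adjusted p was 0.161 (edgeR). The low paralogs Cox6a2 and Ndufa4l2 had log2 fold changes of 0.031 (SE 0.20) and 0.19 (SE 0.36), within their error.

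In complex V, 3 of 17 fell, each from another part of the enzyme. Atp5g1, 1 of the genes of the rotor ring, had 106, 108 and 104 normalised CPM in lesioned cortex, against 121, 123 and 123 in controls, and the smallest p of all members (log2 fold change -0.22, SE 0.047, edgeR adjusted p = 0.0171). Its paralogs Atp5g2 and Atp5g3 had log2 fold changes of 0.054 (SE 0.079) and -0.10 (SE 0.044) and did not pass. Atp5j2, a small membrane subunit, had 71.95, 73.1 and 65.8 normalised CPM in lesioned and 79.0, 81.6 and 83.4 in control cortex (log2 fold change -0.22, SE 0.056, adjusted p = 0.0341 by edgeR). Atp5e, the epsilon subunit of the central stalk, had 49.6, 45.3 and 46.8 in lesioned and 55.6, 52.5 and 60.3 normalised CPM in control cortex (log2 fold change -0.26, SE 0.066, edgeR adjusted p = 0.0348). The lesioned libraries lay below the controls for all 3 genes. Atp5b, the catalytic subunit, averaged 1029 ± 11.9 in lesioned and 1087 ± 20.1 normalised CPM in control cortex (SD, n = 3 each), apart but with an adjusted p of 0.189 (edgeR).

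**Figure D2:**
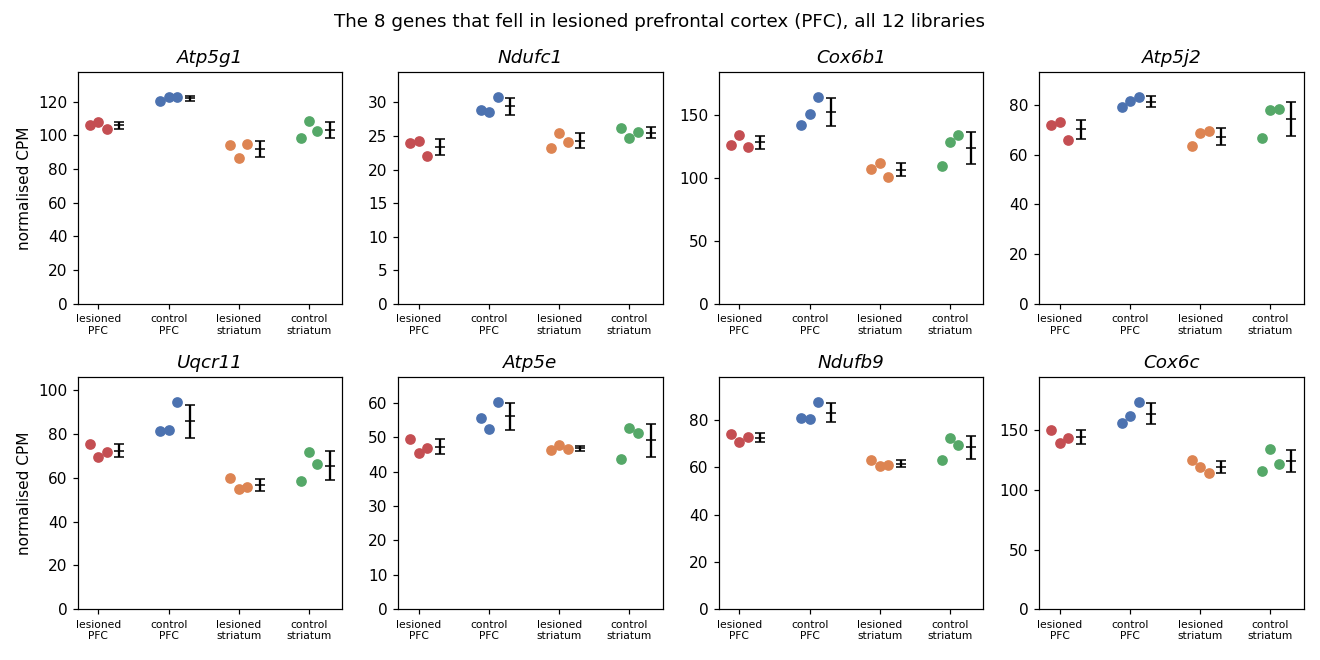
Normalised CPM (axes from 0) of the 8 genes that fell in lesioned prefrontal cortex, 1 point per library with mean and SD of 3 libraries beside it. In prefrontal cortex the lesioned points lie below all control points for each of the 8 genes, while in striatum the groups overlap for 7 of them and are apart for Atp5g1.

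The count of calls moved with single libraries. Without any 1 of the lesioned libraries (replicate 1, 2 or 3) 0 members were called, without control replicate 1 there were 5, without replicate 2 there were 9, and without replicate 3 there were 2, with a median log2 fold change of -0.059. In a single fit of all 12 libraries, which shares 1 spread between the regions, 0 members were called in prefrontal cortex. Astrocyte markers moved with the difference: 6 of 9 fell, and their summed level was 5244 to 5416 normalised CPM in lesioned and 5797 to 6215 in control cortex. Oligodendrocyte markers (1 of 8 fell) summed to 5268 to 6744 in lesioned and 6248 to 8750 in control cortex, and neuronal markers to 8299 to 8748 and 8187 to 8870. Among the 8 neuronal markers, 1 fell, Tubb3 at a log2 fold change of -0.33 (SE 0.055), and 1 rose, Snap25 at 0.17 (SE 0.047). Of the parvalbumin interneuron markers 3 of 7 rose, with sums of 677 to 719 in lesioned and 563 to 619 normalised CPM in control cortex. Of the endothelial markers 2 of 6 fell, with sums of 211 to 219 in lesioned and 226 to 250 in control cortex. Striatal projection neuron markers, whose ranges overlap, summed to 506.5 to 699.2 normalised CPM in lesioned and 568.4 to 1058 in control cortex. All 10 lay below 0, with a median log2 fold change of -0.43, and 0 were called. The part of these cell types in the result was not tested.

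Transcript length moved with the size of the difference. Members are short, with a median transcript of 742 bases, against 2811 for all genes tested in prefrontal cortex. The 27 members under 600 bases had a median log2 fold change of -0.13, the 32 of 600 to 1200 bases -0.097 and the 20 of 1200 bases or more -0.066. All genes tested showed an order of the same kind but smaller, with medians of -0.048, -0.046 and -0.0010 in those classes. Across the 79 members Spearman's rho between length and log2 fold change was 0.39, a description only, since all points share the same 6 libraries. After each library was corrected for GC content and length, rho was 0.13 and the members' median log2 fold change was -0.056. The correction left 4 genes called: Ndufc1 at -0.31 (edgeR adjusted p = 0.0243), Atp5g1 at -0.22 (0.0144), Cox6b1 at -0.20 (0.0457) and Uqcr11 at -0.18 (0.0496).

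**Figure D3:**
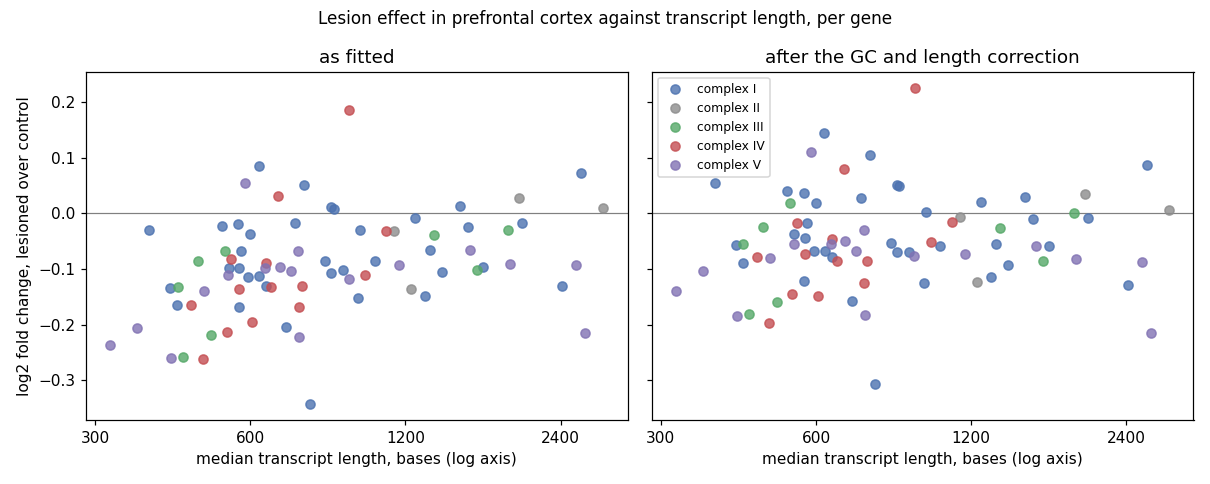
Log2 fold change (lesioned over control prefrontal cortex) of each member against the median length of its transcripts (bases, log axis), coloured by complex, as fitted on the left and after the correction on the right. On the left the members under 600 bases have a median of -0.13, those of 600 to 1200 bases -0.097 and longer ones -0.066, and single genes depart from that order. The medians of all members are -0.098 on the left and -0.056 on the right.

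In striatum, the summed level of the members was 8403, 8467 and 8450 normalised CPM in lesioned libraries, against 8579, 9095 and 9159 in controls. The groups did not overlap, and the lowest control library lay close to the lesioned ones. The median log2 fold change was -0.11, against -0.0041 over all genes, and 72 of 79 members lay below 0. Even so, 0 members were called by edgeR on the 6 striatal libraries, by DESeq2 and by limma-voom. At an unadjusted p under 0.05, edgeR gave 4 lower and 0 higher. Over all genes, edgeR called 0.021% lower and 0.007% higher, and limma-voom 0.0% in either direction. DESeq2 called 1.46% lower and 2.24% higher, with none of the members among them. The biological coefficient of variation was 14.9% in striatum and 5.78% in prefrontal cortex.

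Separation of the striatal groups was found for 23 members on the lower side and 1 on the higher side, against 12.7% and 13.1% of all genes. Of the 23, 11 were in complex I, 2 in complex II, 5 in complex III, 0 in complex IV and 5 in complex V. Complex III had the lowest median log2 fold change at -0.17, with all 8 members below 0. Uqcrfs1, the Rieske protein, had 87.6, 93.3 and 90.7 normalised CPM in lesioned and 103, 103 and 107 in control striatum, a log2 fold change of -0.21 (SE 0.065, edgeR adjusted p = 0.213). Ndufb6, a membrane-arm accessory subunit of complex I, had 28.7, 32.2 and 28.4 in lesioned and 33.9, 35.4 and 38.4 normalised CPM in control striatum (log2 fold change -0.28, SE 0.090, adjusted p = 0.216 by edgeR). These were the 2 members called lower in the fit of all 12 libraries, at adjusted p-values of 0.0412 for Uqcrfs1 and 0.0421 for Ndufb6 (edgeR), where 3.0% of all genes were lower. That fit shares 1 biological coefficient of variation between the regions, 11.3%, against 14.9% in striatum alone. Its striatal p-values may therefore be too small.

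Of the other separated members, the next by p did not pass either. Uqcrh, the hinge protein of complex III, had a log2 fold change of -0.19 (SE 0.084), Atp5md, a small membrane subunit of complex V, -0.16 (SE 0.065), Atp5g1 -0.17 (SE 0.075) and Atp5o, of the peripheral stalk, -0.18 (SE 0.078). Ndufs3, a core subunit of the quinone module, was the member that was separated upwards, at 81.9, 77.1 and 78.1 normalised CPM in lesioned and 71.8, 71.6 and 72.5 in control striatum (log2 fold change 0.13, SE 0.063, edgeR adjusted p = 0.335). Ndufv1 averaged 126 ± 3.40 normalised CPM in lesioned and 133 ± 2.51 in control striatum, Sdha 413 ± 13.8 and 417 ± 17.5, Cox4i1 301 ± 12.6 and 323 ± 24.5, and Atp5b 1004 ± 9.43 and 1041 ± 17.7 (SD, n = 3 each).

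Tissue markers were set beside this difference. Astrocyte markers summed to 4300 to 5139 normalised CPM in lesioned and 4939 to 5111 in control striatum. Of these 9 markers, 7 lay below 0 and 0 were called by edgeR. Their median log2 fold change was -0.216, near the -0.226 of prefrontal cortex. Neuronal markers summed to 4233 to 4436 normalised CPM in lesioned and 4470 to 5056 in control striatum, and oligodendrocyte markers, whose ranges overlap, to 12830 to 20530 and 14220 to 17960. Meningeal markers summed to 9.15 to 14.1 normalised CPM in lesioned and 27.4 to 39.1 in control striatum; all 5 lay below 0 and 0 were called by edgeR. Markers of the hypothalamus and basal forebrain border summed to 264 in lesioned replicate 1 and to 960 and 1062 in the other lesioned libraries, against 501 to 1040 in controls. Together with the projection neuron markers given above, their part in the result was not tested. Without control replicate 1 the members' median log2 fold change was -0.16, and after the GC and length correction it was -0.049.

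**Figure D4:**
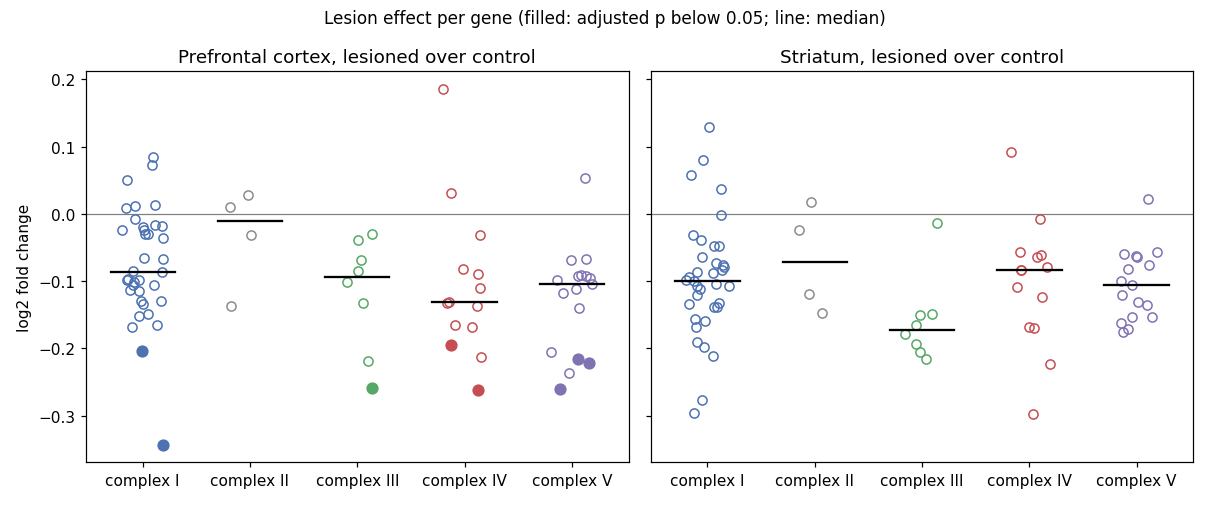
Log2 fold change of each member, lesioned over control, in prefrontal cortex (left) and striatum (right), by complex. Filled points passed an adjusted p of 0.05 (8 on the left, 0 on the right), and black lines are medians, from -0.011 (complex II) to -0.13 (complex IV) on the left and from -0.071 (complex II) to -0.17 (complex III) on the right.

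Lesion effects were not shown to differ between the regions for any member. In the test of the difference itself over 12 libraries, 0 of 79 members were called by edgeR, DESeq2 or limma-voom, and edgeR gave 1 lower and 2 higher at an unadjusted p under 0.05. Over all genes, edgeR gave 0.0688% lower and 0.0138% higher, DESeq2 0.413% and 0.385%, and limma-voom 0.0138% and 0.0%. The edgeR fit shares 1 biological coefficient of variation, 11.3%, between regions that had 14.9% (striatum) and 5.78% (prefrontal cortex) alone, which limits this test. The members' median difference (striatal minus cortical log2 fold change) was -0.0079. Ndufs3 had the smallest p, with a difference of 0.21 (SE 0.073, edgeR adjusted p = 0.338), followed by Ndufc1 at 0.26 (SE 0.098), Uqcrfs1 at -0.17 (SE 0.072), Ndufb3 at -0.25 (SE 0.12), Ndufb1-ps at -0.31 (SE 0.16) and Ndufb7 at -0.23 (SE 0.14). All 5 have adjusted p-values of 0.36 or more, and the last 3 carry the names of accessory subunits of the complex I membrane arm. Ndufb1-ps is annotated as a noncoding transcript in the GENCODE release used. The groups were apart in the same downward direction in both regions for 8 members, Atp5b, Atp5g1, Atp5g3, Ndufb2, Ndufb6, Sdhd, Uqcrc1 and Uqcrq, and in opposite directions for 0. The 8 are 10.1% of the members, against 3.16% of the 13824 genes tested in both regions that were apart downwards in both.

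Between striatum and prefrontal cortex, complex IV had the lowest median of the complexes. In controls, 16 of 79 members were lower in striatum than in prefrontal cortex and 2 were higher (edgeR, 6 control libraries, adjusted p under 0.05). That is 20.3% lower and 2.53% higher, against 21.0% and 21.3% of all genes, so the share of lower members was near the background and the share of higher members below it. Of the 16 lower members, 8 were among the 14 of complex IV, 5 among the 36 of complex I, 1 in complex III, 2 in complex V and 0 in complex II. The median log2 fold change (striatum over prefrontal cortex) was -0.30 in complex IV, against -0.055 in complex I and -0.083 over all members.

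Within complex IV, Cox6a1, Cox6a2, Cox6b1, Cox7a2, Cox8a and Cox4i1, subunits for which mammals have tissue isoforms, were all lower in control striatum. Cox6a2 had 2.33, 1.73 and 2.33 normalised CPM in control striatum, against 4.20, 3.15 and 5.59 in control prefrontal cortex (log2 fold change -1.01, SE 0.26, edgeR adjusted p = 0.0143). Cox8a, a small membrane subunit, had 194, 240 and 218 in control striatum, against 325, 311 and 361 in control prefrontal cortex (log2 fold change -0.61, SE 0.097, adjusted p = 0.00153 by edgeR). Cox6a1 had 139, 184 and 167 normalised CPM in control striatum, against 217, 218 and 254 in control prefrontal cortex (log2 fold change -0.49, SE 0.12, edgeR adjusted p = 0.0101). In all 3 the striatal libraries were below every cortical one. Cox7a2 followed at a log2 fold change of -0.35 (SE 0.091) and Cox6b1 at -0.30 (SE 0.091). Cox4i1 was lower by a log2 fold change of -0.31 (SE 0.081), Cox6c by -0.40 (SE 0.075) and Ndufa4 by -0.33 (SE 0.069). Cox7a2l was classed here as a factor linking complexes III and IV rather than a fixed subunit. Whether its protein links them in this strain was not examined. Cox7a2l had 104 ± 4.62 normalised CPM in control striatum, against 107 ± 3.31 in control prefrontal cortex (SD, n = 3 each) and did not pass.

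In the other complexes, Uqcr11 of complex III was lower in control striatum by a log2 fold change of -0.39 (SE 0.097, edgeR adjusted p = 0.0134) and Atp5d, the delta subunit of the ATP synthase central stalk, by -0.36 (SE 0.083, adjusted p = 0.00901). The 2 higher members were Ndufb2, a membrane-arm accessory subunit of complex I, and Sdhc, a membrane anchor of complex II. Ndufb2 had 33.9, 33.0 and 34.1 normalised CPM in control striatum, against 29.1, 27.5 and 28.5 in control prefrontal cortex (log2 fold change 0.25, SE 0.066, edgeR adjusted p = 0.0168). Sdhc had 86.5, 78.9 and 83.9 in control striatum, against 71.4, 70.2 and 74.4 in control prefrontal cortex (log2 fold change 0.21, SE 0.061, adjusted p = 0.0253 by edgeR). Both sets of libraries were apart. Of the 7 core subunits of the complex I matrix arm, 1 was lower in control striatum: Ndufs3 had 71.8, 71.6 and 72.5 normalised CPM in control striatum, against 80.8, 79.1 and 83.6 in control prefrontal cortex (log2 fold change -0.17, SE 0.056, edgeR adjusted p = 0.0389). Sdha, Uqcrfs1, Ndufs1 and Atp5b did not pass. Sdha averaged 417 ± 17.5 normalised CPM in control striatum, against 391 ± 15.4 in control prefrontal cortex, Uqcrfs1 104 ± 2.33 and 106 ± 3.47, Ndufs1 161 ± 5.71 and 157 ± 6.87, and Atp5b 1041 ± 17.7 and 1087 ± 20.1 (SD, n = 3 each). Ndufv1 averaged 133 ± 2.51 in control striatum, against 140.5 ± 1.94 in control prefrontal cortex, and its groups were separated without passing.

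Lesioned libraries, which share no library with that comparison, gave 25 members lower and 2 higher in striatum than in prefrontal cortex, against a background of 22.5% and 22.7%. Complex IV again had 9 of 14 lower, with a median log2 fold change of -0.28, and complex III had 5 of 8. Cox6a2 had 1.47, 1.98 and 1.76 normalised CPM in lesioned striatum and 3.94, 4.71 and 4.66 in lesioned prefrontal cortex (log2 fold change -1.34, SE 0.19, edgeR adjusted p = 0.000963). Cox8a had a log2 fold change of -0.59 (SE 0.094) and Cox6a1 of -0.44 (SE 0.097), close to their values in controls. Of the members lower in striatum, 14 were called in both comparisons, 56.0% of the 25 in lesioned and 87.5% of the 16 in control libraries. Over all genes, 2260 were lower in both, 70.6% of the 3203 lower in lesioned and 75.6% of the 2990 lower in control libraries. The 2 higher members after lesion were Sdhc, at 0.19 (SE 0.063), and Ndufv3, an accessory subunit of the complex I matrix arm.

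**Figure D5:**
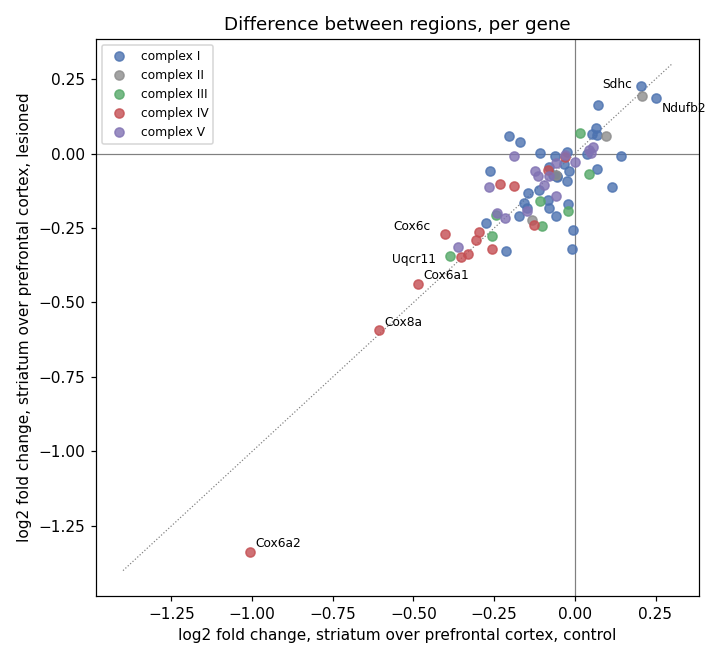
Log2 fold change of each member, striatum over prefrontal cortex, in lesioned libraries (vertical axis) and control libraries (horizontal axis), coloured by complex, with a dotted line where both are equal. Cox6a2, Cox8a and Cox6a1 lie farthest below 0 on both axes, at -1.34 and -1.01, -0.59 and -0.61, and -0.44 and -0.49, and no complex IV gene lies above 0.

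The region counts moved with single libraries: in controls, without striatal replicate 1, 10 members were called (9 lower), against 20 (18 lower) without striatal replicate 2, the library with the highest cortical markers. With upper-quartile scaling, controls gave 10 lower and 3 higher, and with the GC and length correction 28 lower and 2 higher. After lesion, 13 were called without prefrontal replicate 1, 12 without prefrontal replicate 2 and 16 without striatal replicate 3. Cell types differ between the regions. Oligodendrocyte markers summed to 14220 to 17960 normalised CPM in control striatum and 6248 to 8750 in control prefrontal cortex, neuronal markers to 4470 to 5056 and 8187 to 8870, and parvalbumin interneuron markers (7 genes) to 597 to 722 and 563 to 619. The parvalbumin list was split, with 2 genes called lower in control striatum and 3 higher. Pvalb had a log2 fold change of -1.11 (SE 0.175) and Kcnc2 of -0.655 (SE 0.058), against 1.98 (SE 0.238) for Tac1 and 1.21 (SE 0.114) for Lhx6. The part of these cell types in the differences was not tested.

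Other genes of energy metabolism, from lists that share no gene with the members, are given for comparison as counts and medians. In lesioned prefrontal cortex, 1 of 17 genes of the citric acid cycle fell: Idh2, the NADP-dependent mitochondrial isocitrate dehydrogenase, with a log2 fold change of -0.46 (SE 0.074, edgeR adjusted p = 0.00363). Of 17 glycolytic genes, 2 rose, the phosphofructokinase subunits Pfkl at 0.24 (SE 0.049) and Pfkp at 0.17 (SE 0.046). The glycolytic median was -0.025, and 10 of the 17 lay below 0. Over all genes in this comparison, 2.28% were lower and 3.45% higher by edgeR. Of 17 regulators of mitochondrial genes, 1 rose, Esrrg, an estrogen-related receptor, at 0.33 (SE 0.076). Of 77 mitochondrial ribosomal proteins 1 fell (Mrpl15), with a median of -0.055, and of 77 cytosolic ribosomal proteins 1 fell (Rps2), with a median of -0.036. Assembly factors had 0 of 17 called for complex I (median log2 fold change 0.018) and 0 of 18 for complex IV (median -0.017). Cytochrome c and complex III genes outside the name rule had 0 of 8 called, and import and carrier proteins 0 of 16. In lesioned striatum the medians of these lists ran from -0.15 (citric acid cycle) to 0.086 (regulators).

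Against control prefrontal cortex, control striatum had 11 of 17 glycolytic genes lower and 0 higher, with a median log2 fold change of -0.33. The background for this and the next counts was 21.0% of all genes lower and 21.3% higher (edgeR). Ldha, the lactate dehydrogenase A subunit, was at -0.84 (SE 0.070), the hexokinase Hk1 at -0.65 (SE 0.069) and Pfkp at -0.46 (SE 0.063). Cytosolic ribosomal proteins had 20 of 77 higher and 1 lower (median 0.14), among them Rps19 at 0.37 (SE 0.059). In the citric acid cycle, 2 of 17 were lower (Pdha1 and Idh3a) and 1 was higher (Idh2, at 0.45, SE 0.074). Complex IV assembly factors had 3 of 18 lower and 1 higher, with a median of -0.11, against the -0.30 of complex IV itself, and complex I assembly factors 1 of 17 lower and 1 higher.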

How the data were processed

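Gene counts were deposited by the authors as 1 table of raw read counts per symbol. The submitters' processing notes name STAR 2.7.1a, featureCounts and mm10, with annotation and strand setting not given in the sources used here. Rows that hold only multiples of 11 (1830 of 18140 above 0, 0.144% of counts) were dropped. The members and lists were chosen with earlier results of these data known.

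From the counts, edgeR 4.0.16 (R 4.3.3) was fitted to the libraries of each comparison alone, since the spread differed between regions. Each fit used filterByExpr, TMM factors and the quasi-likelihood test. The difference between regions needs the 4 groups in 1 fit, so all 12 libraries were used for it. P-values are two-sided, with Benjamini-Hochberg adjustment over all genes tested and calls at 0.05. SE is the absolute log2 fold change over the root of F. Levels are TMM-normalised CPM over 12 libraries. Members were named by rule: those with the smallest p or largest change per comparison, library separation, extreme levels, and defining subunits with paralogs. DESeq2 1.42.0 and limma 3.58.1 served as alternatives. On simulated counts, 80% of 1.5-fold changes were recovered in prefrontal cortex (13935 genes) and 28% in striatum (14197 genes). Of 1.25-fold changes, nearer in size to those of the members after lesion, 42% were recovered in prefrontal cortex and 2% in striatum. For the difference between regions, 10% of 1.5-fold and 0% of 1.25-fold changes were recovered. For striatum against prefrontal cortex in controls, 56% of 1.5-fold and 0% of 1.25-fold changes were recovered.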

Additional observations from a re-analysis of the deposited data

How the results depend on the processing

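For lower members in prefrontal cortex, 8 became 0 with all 12 libraries in 1 fit, 4 with rows of multiples of 11 kept, 4 with the GC and length correction, 4 with that correction and the replicate block, 5 with the replicate block alone, and 0 to 9 without 1 replicate. The median (-0.098) was -0.056 with the correction, -0.057 with the correction and block, and -0.11 to -0.059 without 1 replicate. In striatum, 0 called became 2 in the fit of 12; the median (-0.11) was -0.049 with the correction, -0.047 with correction and block, and -0.16 to -0.076 without 1 replicate. The difference between regions had 0 called throughout and a median from -0.044 to 0.011 without 1 replicate. Between regions in controls, 18 called became 30 with the correction and 10 to 20 without 1 replicate, and the median (-0.083) was -0.031 with upper-quartile factors. After lesion, 27 called became 17 with the replicate block and 12 to 30 without 1 replicate. Other alternatives stayed within 1.5 times the count and within 1 SD of the median; the causes were not tested. Same-numbered libraries did not deviate together (correlations from -0.11 to 0.092). Of the 324 alternatives for named calls, 254 kept the call, 70 lost it and 0 reversed. The lesion calls in prefrontal cortex were the less stable ones. Out of 18 alternatives each, Cox6c was kept in 6, Ndufb9 in 7, Atp5e in 9, Atp5j2 in 10 and Uqcr11 in 11. Ndufc1 was kept in 13, and Atp5g1 and Cox6b1 in 14 each. Of the named region calls in controls, Sdhc was kept in 12, Ndufb2 in 14 and the others in 18. In simulated data 28% of 1.5-fold changes were recovered in striatum.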

Other observations

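Of the 86 name matches, 7 were left out. Cox6b2, the testis form of Cox6b1, had 13, 27 and 11 counts in lesioned and 24, 24 and 25 in control striatum, against 12, 12 and 5 in lesioned and 7, 10 and 5 in control prefrontal cortex. Cox4i2, the lung and hypoxia form of subunit 4, had 17, 12 and 7 counts in lesioned and 4, 9 and 19 in control striatum, and 24, 16 and 23 in lesioned and 33, 12 and 12 in control prefrontal cortex. Cox7a1, the heart and muscle form of Cox7a2, had 6, 14 and 11 counts in lesioned and 8, 12 and 25 in control striatum, and 22, 15 and 8 in lesioned and 10, 7 and 11 in control prefrontal cortex. Cox8b had 14 counts in control striatal replicate 2 and at most 3 in the other libraries. Cox5b-ps, Cox7b2 and Cox8c were also below 1 CPM on average, and Cox8c held only multiples of 11.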
